A study of Mus musculus with 8 samples.

Results

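Monocytes carrying transcripts of Fn1 and Ccr2 made up 257 of 29891 KL cells, which are c-Kit+ lineage-negative bone marrow cells. The cells were chosen by their raw counts of unique molecular identifiers (UMIs), each of which marks 1 captured mRNA molecule. A cell needed at least 1 UMI each of Fn1, Ccr2 and Csf1r, at most 1 of Siglech, and fewer than 30 of Camp, Ngp and Ltf together. The KL cells came from female B6 mice 3 to 4 months old. SPF mice stayed in a specific-pathogen-free facility, and CVT mice had spent 1 month in a conventional facility, co-housed with CVB mice. Each housing group had 10 mice, pooled by 2 or 3 into 4 pools, and each pool was 1 droplet 3′ library. Pools 1 and 2 (SPF) and pools 3 and 4 (CVT) held mice 1 to 10, and pools 5 and 6 (CVT) and pools 7 and 8 (SPF) held mice 11 to 20.

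Classical monocytes form in the marrow from Irf8-expressing progenitors that respond to the growth factor receptor Csf1r. As they mature they lose the transcripts of azurophil granules (Elane, Prtn3, Ctsg and Mpo), gain lysozyme, cathepsins and the phagocyte oxidase, and leave for the blood through the chemokine receptor Ccr2. Mature monocytes carry CD11b, encoded by Itgam, and react with the GR1 antibody, and both of these were in the lineage cocktail that the KL sort set aside.

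The monocytes held 3343 to 32905 UMIs each, with a median of 5793 UMIs and 1900 genes. CVT pools 3 and 4 stood apart from the other pools: their 13 and 11 monocytes had a median of 12130 and 20976 UMIs, against 5022 to 7665 in the other 6 pools, and the KL cells of these pools were also the most deeply read (medians 10206 and 12772 UMIs, against 7530 to 9102). The share, the counts of genes, most list medians and the fold changes of several named genes are therefore also given without them. Of 522 cell barcodes found in more than 1 pool, 14 belonged to monocytes, and no barcode was shared by monocytes of different pools. Of the monocytes, 73 held transcripts of at least 2 genes of other lineages. Mitochondrial transcripts took a median of 2.32 to 2.81% of monocyte UMIs by pool.

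The values that chose the cells were low, as droplet counts are. The median monocyte had 3 UMIs of Fn1 (fibronectin), 5 of Ccr2 and 1 of Csf1r, and 144 cells passed on a single Csf1r UMI. Just inside the limits, 8 cells had exactly 1 UMI of each gene. These had a median of 20451 UMIs, with 1773 CPM (UMIs of a gene per 1000000 UMIs) of Lyz2 (lysozyme) and 3884 CPM of Mpo. The 76 cells with at least 2 UMIs of each gene had 33591 CPM of Lyz2 and 469 CPM of Mpo. Just outside, 216 cells that lacked only a Csf1r UMI had 17681 CPM of Lyz2, and 1693 cells that lacked only Fn1 had 512 CPM. The limit on granule transcripts left out 24 cells, and the limit on Siglech left out 0.

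Summed together, the chosen cells carried the wider monocyte program that the rule did not name. Not every cell did so: 64 cells had fewer than 300 UMIs of the monocyte list per 10000 (median 67.7), as described below. Every gene was measured in the cells that were chosen, so these levels are a description. All 24 genes of a monocyte list were detected, with a summed level of 36872 CPM (mean of 8 pools). The sum was 3136 CPM in Irf8 Csf1r progenitors (1085 cells with Irf8 and Csf1r but neither Fn1 nor Ccr2). It was 950 CPM in erythroid cells, 12433 CPM in Siglech cells and 27109 CPM in granulocytes, so the list was not particular to monocytes. Lyz2 alone had 19410 CPM in monocytes and 13764 CPM in granulocytes. In CVT pools 3 and 4 the list was higher in granulocytes (24294 and 27304 CPM) than in monocytes (19415 and 9623 CPM). In every other pool it was higher in monocytes. The fourth marker of the cells, Ms4a6c, a membrane protein of myeloid cells, was detected in 99.2% of monocytes. After every cell was thinned to 2759 UMIs, Ms4a6c was found in 93.8% of monocytes and 3.49% of 7451 erythroid cells, which should lack it (median depths before thinning 5793 and 10871 UMIs). The same thinned shares were 90.7% and 8.01% for Ly6c2, the antigen of classical monocytes, and 92.2% and 19.7% for Lyz2. Ly6c2 and Ly6c1, Lyz2 and Lyz1, and genes of the H2 family are near copies of each other, so reads may have been split among them and their levels are uncertain.

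By the rule applied here (at least 50 CPM in monocytes and higher in 8 of 8 pools), 578 of 2501 genes were higher in monocytes than in all other KL cells, 131 of them by at least 4-fold. S100a4, a calcium-binding protein of motile cells, had 846 ± 357 CPM (SD, n = 8 pools) against 17.6 CPM in all other KL cells. Lgals3, the lectin galectin-3, had 1661 ± 692 CPM against 53.3 CPM. Clec4a3, a C-type lectin receptor, had 134 ± 63.9 CPM against 2.09 CPM, and Sirpb1c had 90.0 ± 46.6 CPM against 1.17 CPM. The large SDs came with pools 3 and 4: Sirpb1c had its lowest value, 4.94 CPM, in pool 4, and S100a4 its lowest, 183 CPM, in the same pool.

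Of the other leading genes, Tgfbi, a secreted adhesion protein, had 225 ± 85.2 CPM against 7.38 CPM in all other KL cells. Ctss, the lysosomal protease cathepsin S, had 785 ± 347 CPM against 38.0 CPM, and Naaa, a lysosomal lipid amidase, had 125 ± 47.5 CPM against 4.20 CPM. The chemokine Ccl6 had 674 ± 346 CPM against 18.05 CPM. The interferon-inducible Ifi27l2a, Ifi204 and Mnda were also among the 25 leading genes, at 1133, 88.4 and 66.6 CPM against 42.0, 2.58 and 1.84 CPM. Trem2, a lipid-sensing receptor, came last of the 25 at 52.2 ± 21.8 CPM against 2.27 CPM. Not all leading genes were particular to the monocytes. In Siglech cells Ctss had 688 CPM and Ifi27l2a 546 CPM, and in granulocytes Lgals3 had 531 CPM. S100a4 and Clec4a3 were low in both, at 29.1 and 10.1 CPM in granulocytes and 54.2 and 1.57 CPM in Siglech cells.

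**Figure D1:**
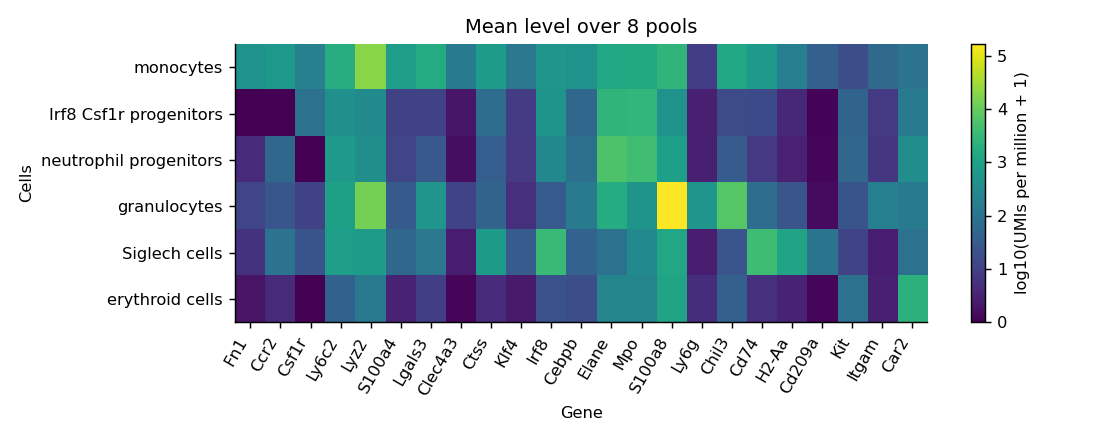
Mean level over 8 pools of 23 genes (columns) in monocytes and 5 other groups of KL cells (rows), as log10 of CPM plus 1. Fn1, Ccr2 and Csf1r were used to choose the monocytes, and Fn1 and Ccr2 to leave cells out of the Irf8 Csf1r progenitors. S100a4, Lgals3, Clec4a3 and Klf4 were highest in the monocyte row, S100a8 and Ly6g in granulocytes, and Irf8, Cd74 and H2-Aa in Siglech cells.

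Against the Irf8 Csf1r progenitors, which were chosen to lack Fn1 and Ccr2, 479 genes were higher and 500 lower in 8 of 8 pools. Apart from the genes of the rule, the largest differences upward were those of Lgals3 (9.32 CPM in the progenitors), S100a4 (9.35 CPM), Chil3 (15.5 CPM against 1322 CPM in monocytes), Sirpb1c, Clec4a3, Lyz2 (310 CPM against 19410 CPM), Plbd1 and Ccl6. Among the 10 genes lowest against the progenitors, Dntt, the template-free polymerase of lymphoid priming, had 137 CPM against 12.1 CPM in monocytes. Adgrg1, an adhesion receptor of stem and progenitor cells, had 70.7 CPM against 16.5 CPM, and the cyclin Ccnd2 had 212 CPM against 66.8 CPM.

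Fate transcription factors had unlike patterns. Klf4, needed for monocyte differentiation, had 123 ± 53.3 CPM in monocytes, 7.44 CPM in Irf8 Csf1r progenitors and 4.21 CPM in granulocytes. Cebpb had 456 CPM, 57.9 CPM and 147 CPM in the same order. Irf8, which was used to choose the progenitors, had 530 CPM in monocytes, 500 CPM in the progenitors and 3346 CPM in Siglech cells. Cebpe and Gfi1, factors of the neutrophil branch, stood at 8.71 and 2.55 CPM in monocytes, with Cebpe at 630 CPM in granulocytes. Irf5 stood at 116 CPM, against 11.99 CPM in the progenitors.

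The 19 lysosome genes summed to 26224 CPM, against 2254 CPM in Irf8 Csf1r progenitors and 15878 CPM in granulocytes, and Lyz2, which is on both the lysosome and the monocyte list, gave most of it. The 23 interferon-stimulated genes summed to 4552 CPM against 833 CPM in the progenitors. Ifitm3, a restriction factor of endosomes, and Ifi27l2a carried 2745 and 1133 CPM of this sum, whereas Ifit1, Ifit3, Rsad2 and Mx1 were each below 10 CPM. Of the NADPH oxidase genes, Cybb (the catalytic subunit) had 413 CPM against 13.5 CPM in the progenitors, and Cyba 1362 CPM against 307 CPM.

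Receptors of microbes were few in transcripts. Of 21 microbial sensing genes with values, 11 stood below 10 CPM and Tlr9 was at 0 in all pools. The highest was Ly86, the partner of the Toll-like receptor homologue Cd180, at 291 CPM. Tlr2 had 26.4 CPM, Cd14 25.9 CPM, Ly96 39.5 CPM, Tlr13 16.5 CPM and Tlr4 2.48 CPM. Fc receptor signalling chains were abundant, with Tyrobp at 2491 CPM and Fcer1g at 2099 CPM. The antibody receptors Fcgr3 and Fcgr1 had 174 and 33.5 CPM, and the complement receptors C5ar1 and C3ar1 had 8.90 and 1.72 CPM. Among cytokine receptors, Ifngr1 had 208 CPM, Csf2ra 152 CPM and Il6ra 72.1 CPM.

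Markers of other cell types were low, with named exceptions. Of 10 patrolling monocyte genes 5 stood below 10 CPM, with Cd300e at 0 in every pool, while Cx3cr1 had 106 CPM, Pou2f2 84.7 CPM, Spn 64.5 CPM and Itgal 51.4 CPM. The list summed to 333 CPM, against 212 CPM in the progenitors and 185 CPM in all other KL cells. Of 12 macrophage genes 10 stood below 10 CPM, and Vcam1 and Spic were at 0. The classical dendritic list was an exception, at 1272 CPM against 174 CPM in all other KL cells and 6963 CPM in Siglech cells. Its MHC class II genes and Cd74 gave most of this sum, and Id2, a transcriptional regulator, had 85.5 CPM against 17.1 CPM. Its genes Zbtb46, Xcr1 and Itgax were at 0 (for Itgax, 0 of 257 cells, which allows up to 1.17% of cells with a UMI and sets no limit on cells that express it). The B cell, T and NK cell, basophil and mast cell, megakaryocyte and stem cell lists summed to 23 to 106 CPM. The erythroid list had 164 to 1266 CPM in 7 pools and 3770 CPM in SPF pool 7. Its globins are given below.

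The genes of the sort gate did not follow the gate in these cells. Kit, which encodes the c-Kit antigen that was sorted for, had 16.7 CPM in monocytes against 76.5 CPM in all other KL cells. After thinning it was found in 3.50% of monocytes and 22.96% of erythroid cells. Itgam, whose product was sorted against, had 62.6 CPM against 14.1 CPM and was found in 20.6% of thinned monocytes and 0.497% of thinned erythroid cells. Surface protein was not measured in the files used here.

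The monocytes were not uniform. They were ranked by their UMIs of Elane, Prtn3, Ctsg and Mpo per 10000 UMIs and divided into 86 azurophil-low, 86 azurophil-mid and 85 azurophil-high cells. Azurophil-low and azurophil-mid cells had like totals, with medians of 4943 and 5029 UMIs. They differed on some lists, such as the late neutrophil list (15009 and 5869 CPM) and the erythroid list (3114.5 and 903 CPM). Azurophil-high cells had a median of 14255 UMIs and between 8.94 and 286 azurophil UMIs per 10000. All these values come from the cells that were ranked, and they are given with no test.

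Along this ranking, the monocyte list had 70518 CPM in azurophil-low, 62886 CPM in azurophil-mid and 16553 CPM in azurophil-high cells. Lyz2 had 40486, 35973 and 6321 CPM, Ctss 1667, 1449 and 276 CPM, and S100a4 1587, 1606 and 364 CPM. Ccl6 had 1525, 1415 and 123 CPM, and Clec4a1, a C-type lectin, 213, 152 and 10.5 CPM. These genes had like levels in both lower groups and lower ones in azurophil-high cells. Ly6c2 varied little by comparison, at 2155, 2175 and 1703 CPM.

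The azurophil-high cells held more transcripts of dividing cells. The replication list, such as the helicase gene Mcm5 and the clamp gene Pcna, had 615, 1070 and 2571 CPM from azurophil-low to azurophil-high cells, and the mitosis list 1269, 2349 and 2688 CPM. Mcm5 had 25.8, 73.2 and 167 CPM and the proliferation marker Mki67 77.4, 141 and 150 CPM. The heat shock list had the same order, at 3067, 3774 and 6441 CPM, led by the chaperone Hsp90ab1 (746, 777 and 2216 CPM). Irf8 was also highest in azurophil-high cells, at 325, 287 and 650 CPM.

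The interferon gamma receptor gene Ifngr1 had the opposite order, at 344, 325 and 128 CPM, and the interferon-stimulated list had 9348, 7904 and 1858 CPM. Kit and Flt3, receptors of early progenitors, had 22.5 and 37.0 CPM in azurophil-high cells against 10.8 and 19.4 CPM in azurophil-low cells, from 28 and 46 UMIs against 5 and 9. Itgam had 140, 105 and 24.1 CPM.

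**Figure D2:**
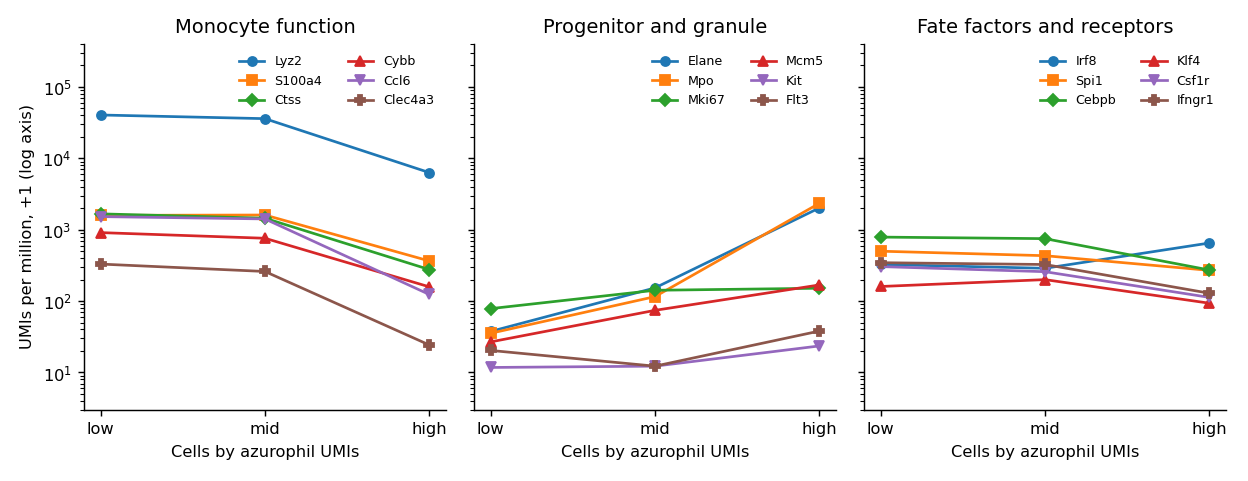
CPM plus 1 (log axis) of 18 genes in 86 azurophil-low, 86 azurophil-mid and 85 azurophil-high cells, each group summed over all pools. Lyz2, Ctss and Ccl6 were lowest in azurophil-high cells, the granule genes Elane and Mpo were highest there by construction of the ranking, and Irf8 was highest in azurophil-high cells. Csf1r, also plotted, was used to choose the cells.

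Over the 257 cells, the monocyte list and the azurophil list had a Spearman rho of -0.62, the monocyte list and the mitosis list -0.64, and the monocyte list and the UMI total -0.77. These cells share pools and a total that enters both measures, so the coefficients are descriptions. The cells were not spread evenly: 64 cells had fewer than 300 UMIs of the monocyte list per 10000, of which 55 were azurophil-high, and their median was 16521 UMIs. After thinning to 2759 UMIs, 11 of the 85 azurophil-high cells (12.9%) still met the rule for monocytes, against 93 of the other 172 (54.1%). Depth moved with the ranking, and its part in the ranking was not tested further.

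**Figure D3:**
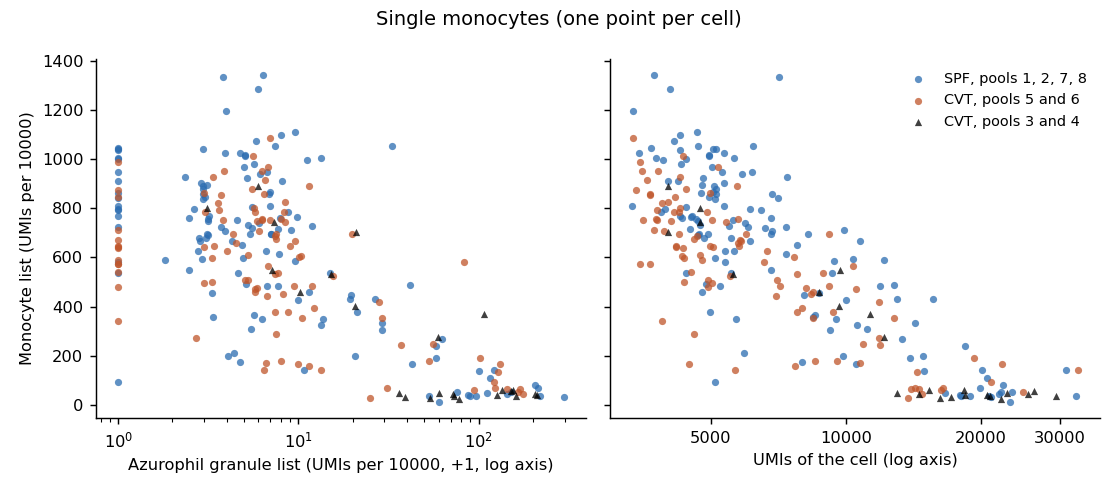
Monocyte list UMIs per 10000 UMIs (y axis) against azurophil list UMIs per 10000 plus 1 (left, log axis) and against the UMI total of the cell (right, log axis), 1 point for each of 257 monocytes. Cells rich in azurophil transcripts and with large totals lay low on the monocyte list, and most cells of CVT pools 3 and 4 (triangles) lay there.

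MHC class II transcripts were concentrated in a few cells. The list, whose products present peptide to CD4 T cells, had a median of 4.21 UMIs per 10000 and a highest value of 762. With a limit of 100 per 10000, set after the values were seen, 12 cells held 70.0% of all MHC class II list UMIs, and the other 245 cells had at most 69.2 per 10000. Of the 12 cells, 7 were azurophil-low, 4 azurophil-mid and 1 azurophil-high, and 3 each came from CVT pools 5 and 6 and SPF pool 8. Their median on the monocyte list was 643 per 10000. Cd74, the invariant chain, had a UMI in 22.96% of thinned monocytes against 0.725% of thinned erythroid cells. The class II gene H2-Aa had a UMI in 8.95% against 0.698%, whereas H2-Ab1 was near the erythroid background, at 9.34% against 8.42%. Of the same cells, Cd209a, a lectin of monocyte-derived dendritic cells, had a UMI in 6.23% against 0.0671%.

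A second uneven group of genes was that of late neutrophils. Under the same kind of limit, 24 cells had at least 100 UMIs of the late neutrophil list per 10000, up to 1657, and held 79.4% of its UMIs, while the other 233 cells had a median of 12.9. The list has S100a8, S100a9, Retnlg and Ly6g, and its sum in granulocytes was 296470 CPM against 4977 CPM in monocytes. Of these 24 cells 15 were azurophil-low. Their part in the results below was not tested beyond the limits on Camp, Ngp and Ltf, which were also set at under 5 UMIs.

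The study compared housing for its effect on blood-forming cells, and the same comparison is made here for the monocytes. Monocytes were 1.59, 0.520, 2.03 and 0.882% of KL cells in SPF pools 1, 2, 7 and 8. They were 0.268, 0.263, 1.47 and 0.881% in CVT pools 3, 4, 5 and 6. The exact (Clopper-Pearson) 95% intervals were 0.143 to 0.458% for CVT pool 3, 0.132 to 0.471% for CVT pool 4 and 1.47 to 2.74% for SPF pool 7, for counting error only. Pools 3 and 4 were the lowest, while pools 5 and 6 lay within the SPF range.

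The mean share was 0.722 ± 0.580% in CVT and 1.26 ± 0.683% in SPF (SD, n = 4 pools each), a difference of -0.535 percentage points with a 2-sided exact permutation p of 0.229, where the smallest p that 70 regroupings allow is 0.0286. With cells thinned to 2759 UMIs the shares were 0.300% and 0.535% (exact permutation p = 0.229). Within mice 1 to 10 the shares were 0.266% in CVT and 1.05% in SPF, and within mice 11 to 20 1.18% and 1.46%, with 2 pools against 2 in each, a design whose exact permutation p cannot go below 0.333. Without CVT pools 3 and 4 the difference was -0.0787 points (exact permutation p = 0.733, where the smallest possible is 0.0667).

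Divided by azurophil transcripts, the shares behaved unlike each other. Azurophil-high cells took 0.182 to 0.388% of KL cells in all 8 pools, a range of 2.13-fold, with 0.274 ± 0.0700% in CVT and 0.310 ± 0.0900% in SPF. Of these 85 cells, 55 had fewer than 300 UMIs of the monocyte list per 10000. Azurophil-low and azurophil-mid cells together took 0.0413 to 1.65%, a range of 39.9-fold, with 0.448 ± 0.510% in CVT and 0.946 ± 0.617% in SPF. In CVT pools 3 and 4 only 2 cells each were of these lower groups (0.0413 and 0.0479% of KL cells), against 13 to 48 cells in the other pools. The same pools had the smallest shares of granulocytes, 2.60 and 1.99% against 2.99 to 11.2% elsewhere, and of Siglech cells, and the largest shares of neutrophil progenitors, 18.6 and 21.3% against 6.98 to 13.2%. Whether sorting, depth or the mice set this pattern was not tested.

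**Figure D4:**
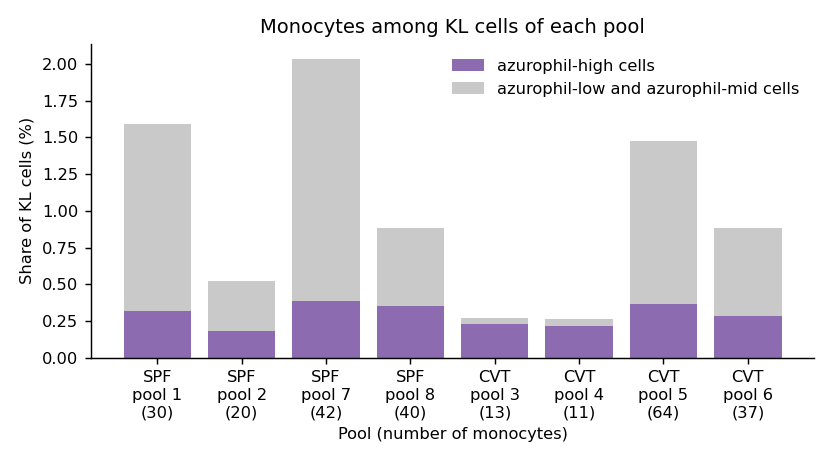
Monocytes as a percentage of the KL cells of each pool (bars from 0; number of monocytes in brackets), divided into azurophil-high cells (purple) and azurophil-low with azurophil-mid cells (grey). The purple part stayed between 0.182 and 0.388%, while the grey part ran from 0.0413% in CVT pool 3 to 1.65% in SPF pool 7.

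For expression by housing, UMIs were summed over the monocytes of each pool (152617 to 459805 UMIs) and compared with edgeR's quasi-likelihood test. Of 3064 genes tested, 0 passed an adjusted p of 0.05 in either direction (0.0% of genes), and the smallest adjusted p was 0.724. At an unadjusted p under 0.05, edgeR had 118 genes higher and 82 lower in CVT monocytes, and DESeq2 had 54 and 54 with 0 past adjustment. A p that misses the threshold does not show that the groups are alike. In such sums, fewer cells of one stage and less RNA per cell cannot be told apart.

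Genes whose CVT and SPF pools did not overlap were 49 with CVT higher (1.6% of genes tested) and 83 with CVT lower (2.71%). The 10 of smallest p in each direction are described here, and none passed adjustment. Of the lower genes, Ctsc, the protease that activates granule enzymes, had 545, 421, 523 and 442 CPM in SPF pools 1, 2, 7 and 8 and 216, 93.8, 359 and 267 CPM in CVT pools 3, 4, 5 and 6. The log2 fold change was -0.96 ± 0.28 (SE; edgeR adjusted p = 0.724). Without pools 3 and 4 it was -0.57 ± 0.17. Pools 3 and 4 were the lowest. All 20 genes were picked because their pools did not overlap, so the order of the pools restates that choice.

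Hp, the haemoglobin scavenger haptoglobin, had 1037, 847, 979 and 752 CPM in the SPF pools and 413, 232, 705 and 528 CPM in the CVT pools, in the same order, with a log2 fold change of -0.89 ± 0.26, and -0.50 ± 0.15 without pools 3 and 4. Eno1, a glycolytic enzyme, had 502, 386, 537 and 403 CPM against 282, 217, 339 and 274 CPM (-0.67 ± 0.18, and -0.53 ± 0.17 without those pools). Ncf4, a cytosolic subunit of the oxidase, had 198, 202, 220 and 215 CPM against 125, 93.8, 165 and 130 CPM (-0.63 ± 0.19, and -0.44 ± 0.20 without them). The SPF pools of Ncf4 lay closely together and the CVT pools were spread below them. The other lower genes were Glmp, Sdf4, Cotl1, Klra2, Tsen34 and Apobec1, with log2 fold changes from -1.24 to -0.55.

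Of the higher genes, Cd24a, a surface glycoprotein of immature blood cells, had 72.4, 98.0, 86.3 and 95.6 CPM in the SPF pools and 105, 168, 124 and 177 CPM in the CVT pools, with a log2 fold change of 0.74 ± 0.22, and 0.78 ± 0.23 without pools 3 and 4. Ncapg, a subunit of condensin in dividing cells, had 14.5 to 40.4 CPM in SPF and 45.7 to 54.3 CPM in CVT (1.04 ± 0.32, and 0.97 ± 0.40 without those pools). Of the 10, 6 were ribosomal protein genes, namely Rpl32, Rpl27a, Rps15a, Rpl23, Rpl7 and Rpl27. Rpl32 had 5436, 6295, 5971 and 6553 CPM in SPF and 7915, 8473, 6831 and 7129 CPM in CVT (0.36 ± 0.10, and 0.25 ± 0.10 without those pools). Of 92 ribosomal protein genes tested 87 had a positive fold change, with a median of 0.27 against 0.02 for all genes tested, and 18 had pools that did not overlap. Ribosomal protein genes were counted together after their values were seen, and their median was not taken without pools 3 and 4. Azurophil-high cells were 84.6 and 81.8% of the monocytes of pools 3 and 4. Within azurophil-high cells Rpl32 had 7328, 7478, 7374 and 7421 CPM in SPF and 8028, 8682, 7910 and 8085 CPM in CVT. The part of this mix of cells in the ribosomal counts was not tested. Nsrp1 and Bckdha completed the 10.

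**Figure D5:**
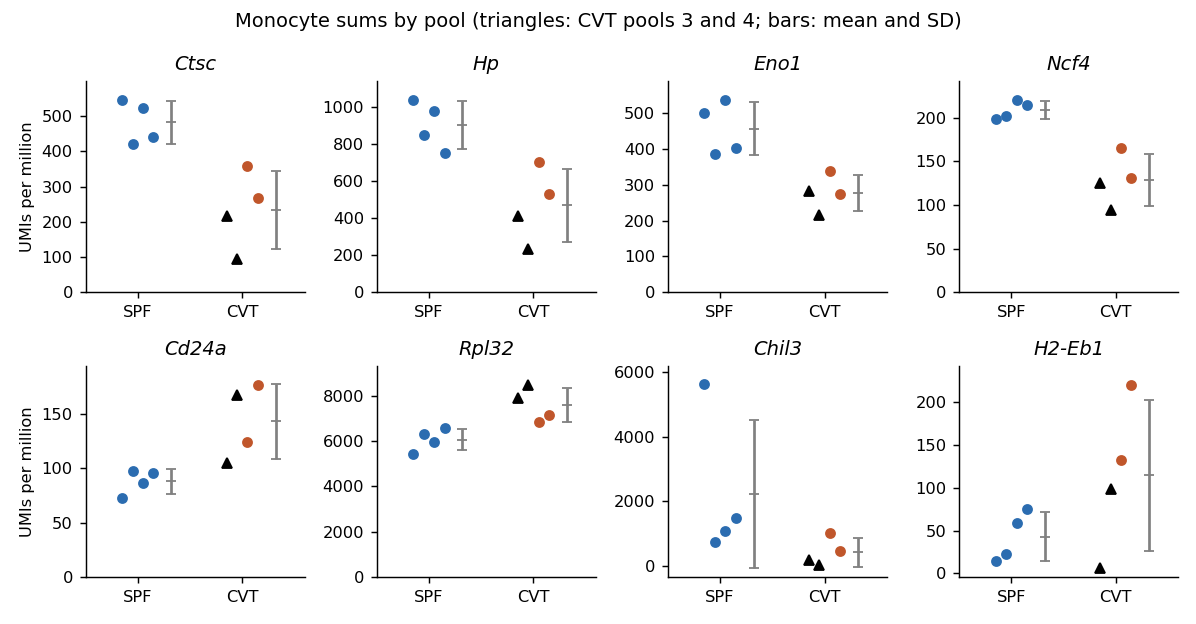
CPM in monocyte sums, 1 point per pool, for 8 genes in SPF (pools 1, 2, 7 and 8) and CVT (pools 3 to 6; triangles are pools 3 and 4), with the mean and SD of 4 pools in grey. Ctsc, Hp, Eno1 and Ncf4 lay lower and Cd24a and Rpl32 higher in every CVT pool than in any SPF pool, and Chil3 and H2-Eb1 overlapped.

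By list, none of the members tested was called in either direction, so the values are given as counts and medians beside the median of all genes tested, 0.02 on the log2 scale. The list medians moved with pools 3 and 4. All 23 tested monocyte genes had negative fold changes, with a median log2 of -0.52, which was -0.01 without pools 3 and 4. All 17 lysosome genes were negative, with a median of -0.48, and -0.18 without those pools. The 6 NADPH oxidase genes had -0.40 and 0.00, the 8 interferon-stimulated genes -0.50 and -0.12, and the 6 Fc and complement receptor genes -0.58 and -0.13. The azurophil granule list went the other way, at 0.46 with all pools and -0.24 without pools 3 and 4, and the replication list at 0.23 and -0.13. The mitosis list had 16 of 18 genes positive, with medians of 0.32 and 0.23.

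Within azurophil-high cells, where pools 3 and 4 still had 11 and 9 cells, the median of the monocyte list was -0.18, that of the azurophil list 0.02 and that of the mitosis list -0.18, the last over 15 genes and opposite in sign to its value over all monocytes. In these cells the monocyte list had a median of 59.6 and 44.0 UMIs per 10000 in CVT pools 3 and 4, against 172 and 203 in CVT pools 5 and 6 and 140 to 322 in the SPF pools.

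Summed levels show the same split of the CVT pools. The monocyte list had 62204, 39951, 49415 and 34202 CPM in SPF pools 1, 2, 7 and 8, and 19415, 9623, 44604 and 35560 CPM in CVT pools 3, 4, 5 and 6. The interferon-stimulated list had 3753 to 6382 CPM in SPF, 2313 and 1605 CPM in CVT pools 3 and 4, and 5779 and 5545 CPM in CVT pools 5 and 6. The microbial sensing list had 592 to 724 CPM in SPF and 306 to 657 CPM in CVT, with 3 members tested at a median log2 of -0.26, which was 0.04 without pools 3 and 4. The homing list, with Ccr2 and Selplg, had 1797 to 2214 CPM in SPF and 978 to 1946 CPM in CVT, with a median log2 of -0.22 over 10 members tested and 0.0044 without pools 3 and 4.

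MHC class II transcripts differed from this order. The list had 1032, 986, 1255 and 2177 CPM in SPF pools 1, 2, 7 and 8 and 459, 1560, 2001 and 2572 CPM in CVT pools 3, 4, 5 and 6. Its median log2 over 6 tested genes was 0.31, and 0.81 without pools 3 and 4. H2-Eb1, a class II beta chain named here after its values were seen, had 14.5, 23.1, 58.4 and 74.97 CPM in SPF and 6.55, 98.8, 133 and 221 CPM in CVT, a log2 fold change of 1.40 ± 0.56 (edgeR adjusted p = 0.724). Without pools 3 and 4 it was 1.85 ± 0.32 (edgeR adjusted p = 0.0199), and Car1 and Car2, both highest in CVT pool 6, were the other genes that passed there. That fit sets CVT pools of mice 11 to 20 against SPF pools of all mice. Among mice 11 to 20 alone H2-Eb1 had a log2 fold change of 1.39 ± 0.28 (edgeR adjusted p = 0.167), and 0 of 4182 genes passed in edgeR, while before adjustment 96 were higher and 88 lower (p under 0.05). Most UMIs of the list came from few cells: the 12 cells of high MHC class II held 70.0% of them. These cells were 3 in each of CVT pools 5 and 6, 1 in CVT pool 4, and 5 in the SPF pools together. Their part in this difference was not tested.

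Chil3, a chitinase-like protein of myeloid cells, had 5644, 732, 1085 and 1466 CPM in SPF pools 1, 2, 7 and 8 and 164, 14.8, 1009 and 464 CPM in CVT pools 3, 4, 5 and 6, so the groups overlapped, and its log2 fold change was -2.33 ± 0.79 (edgeR adjusted p = 0.724). It was -1.32 ± 0.69 without SPF pool 1, -3.26 ± 0.83 without CVT pool 5 and -1.52 ± 0.47 without CVT pools 3 and 4. Among azurophil-high cells alone it had 1345, 608, 670 and 774 CPM in SPF and 167, 15.95, 170 and 254 CPM in CVT, and there it was the 1 gene that passed, at a log2 fold change of -2.44 ± 0.37 (edgeR adjusted p = 0.00699). Those levels rest on 58 to 189 UMIs in an SPF pool and 3 to 36 in a CVT pool. Chil3 is abundant in granulocytes (7122 CPM). Over all monocytes the late neutrophil list had 7400, 7419, 8589 and 3986 CPM in SPF pools 1, 2, 7 and 8. It had 1048, 499, 7281 and 3594 CPM in CVT pools 3, 4, 5 and 6. The CVT pools had the same order for Chil3 and for the list, and the SPF pools did not. Whether granulocyte transcripts had a part in the Chil3 values was not tested.

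The housing change was next compared between monocytes and all other KL cells of the same pools, with the pool as a block. The term differed for 33 of 11615 genes (0.284%) in edgeR, 9 with a more positive and 24 with a more negative change in monocytes, and for 0 genes in DESeq2, which had 258 at an unadjusted p under 0.05. Of the 5 genes of smallest p, Chil3 had 413 CPM in CVT and 2232 CPM in SPF monocytes, against 271 and 439 CPM in other KL cells (difference of log2 changes -1.75 ± 0.16). S100a8 had 1645 and 3639 CPM against 7209 and 10139 CPM (-1.14 ± 0.11). S100a8 is on the late neutrophil list, and 24 monocytes held 79.4% of the UMIs of that list. CVT pool 3 had 1 of these cells and CVT pool 4 had 0, against 2 to 6 in each other pool. In monocytes alone the log2 housing change of S100a8 was -3.34 among pools 1 to 4 and -0.17 among pools 5 to 8 (edgeR). The part of these 24 cells in the S100a8 difference was not tested. Tmsb4x, which binds actin monomers, had 12008 and 18146 CPM against 3468 and 3838 CPM (-0.63 ± 0.09). Each of these 3 had an edgeR adjusted p of at most 2.81e-08, whereas the smallest DESeq2 adjusted p of any gene was 0.99995. The SE of Chil3 was smaller here than in the edgeR fit of monocytes alone, given above. The edgeR SEs and p-values of this joint fit may therefore understate the spread between monocyte pools, and the reason was not examined.

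The other two genes were erythroid. Car2, a carbonic anhydrase, had 151 CPM in CVT and 42.5 CPM in SPF monocytes, with 391 CPM in CVT pool 6 and 16.7 to 93.8 CPM in the other 7 pools. The globin Hba-a1 had 824 CPM in SPF pool 7 and 0 to 73.5 CPM elsewhere. Globin reads can be split between the near-identical Hba-a1 and Hba-a2, so its level is uncertain. Without CVT pools 3 and 4 the number of genes was 15 in place of 33.

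Against the Irf8 Csf1r progenitors, the housing change differed for 0 of 5890 genes (0.0%) in edgeR, with 381 at an unadjusted p under 0.05, and for 3 genes in DESeq2. Without CVT pools 3 and 4 edgeR gave 2 genes.

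The housing change did differ between the mice of pools 1 to 4 and those of pools 5 to 8. The term passed for 66 of 3064 genes (2.15%) by edgeR. Cebpb, the transcription factor of myeloid maturation, had 564 and 669 CPM in SPF pools 1 and 2 against 144 and 128 CPM in CVT pools 3 and 4, but 537 and 429 CPM in SPF pools 7 and 8 against 698 and 474 CPM in CVT pools 5 and 6 (edgeR adjusted p = 0.00542). Ccl6 had 1023 and 911 CPM against 190 and 153 CPM, then 921 and 533 CPM against 946 and 715 CPM. Mif, a cytokine of many cells, went the other way, with 391 and 461 CPM against 989 and 1378 CPM, then 654 and 695 CPM against 468 and 561 CPM. In each case pools 3 and 4 stood apart from the other 6 pools.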

How the data were processed

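Bone marrow KL cells of 8 pools were sequenced with a droplet 3′ kit. The authors deposited 1 table of UMI counts, 27998 genes by 29891 cells, with the counts neither scaled nor log-transformed. The submitters' processing notes name Cell Ranger and build mm9. The pool of a cell is the number in its name, matched to the samples' descriptions. The members and gene lists were chosen with earlier results of these data known. UMIs were summed over monocytes per pool and CVT was tested against SPF with edgeR 4.0.16 (filterByExpr, TMM, Benjamini-Hochberg), DESeq2 1.42.0 as an alternative. Shares were compared by 2-sided exact permutation over pools. Nothing says that pools were processed apart from each other, so p-values measure the spread between pools. In the edgeR fit against all other KL cells they may understate it. CPM is UMIs per 1000000 UMIs of the summed cells, and 3′ UMI counts were not divided by gene length. The edgeR steps were tested on simulated counts that held only large changes. For the joint fit with all other KL cells, every gene had the same dispersion and no pool effect was simulated. The simulations therefore do not speak to smaller changes or to the spread between pools in the joint fit. Genes were named by rule: rule genes, list members by level, leading genes by ratio, non-overlapping genes by p, and genes with an interaction. Of 326 listed genes, 2 (Clec7a and Cebpd) had no row and were not analysed here. Scrublet marked 92 cells (0.308%), too few for it to have worked, so no cell was removed as a doublet. How overlapping genes were counted is not given in the sources used here. Results depend on at most 64 monocytes in a pool, and intervals cover counting error only.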

Additional observations from a re-analysis of the deposited data

Results flagged for a closer look

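In monocyte sums, 7 of 118 groups of 4 pools had 1 pool far from the other 3 (gap over range above the 95% critical value of Dixon's test), where chance flags about 1 in 20 groups. In SPF pool 7 the erythroid list was at 3770 CPM against 167 to 458 CPM in the other SPF pools, the megakaryocyte list at 75.1 CPM against 9.65 to 15.5 CPM, and the immediate early list at 1591 CPM against 1918 to 1958 CPM. In SPF pool 1 Chil3 was at 5644 CPM against 732 to 1466 CPM, and Cotl1, an actin-binding protein, at 719 CPM against 507 to 540 CPM. In CVT pool 6 the carbonic anhydrase genes Car1 and Car2 were at 301 and 391 CPM, against 52.4 to 79.0 CPM and 52.4 to 93.8 CPM in the other CVT pools.

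The housing change differed between mice 11 to 20 and mice 1 to 10 by log2 values of 2.47 for Cebpb, 2.71 for Ccl6, -1.88 for Mif, 2.56 for Samhd1 and 9.84 for Cd209a (edgeR). The value for Cd209a depends on the prior count, since CVT pools 3 and 4 held 0 UMIs of it. It differed between monocytes and all other KL cells by -1.75 for Chil3, -1.14 for S100a8, 1.76 for Car2, -0.63 for Tmsb4x and -1.89 for Hba-a1. The cause of these differences was not tested.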

How the results depend on the processing

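The lower monocyte share in CVT pools kept its direction under every alternative run, with each pool left out giving -0.786 to -0.275 points, but came to -0.0787 points without CVT pools 3 and 4 and to -0.0441 points in thinned cells of mice 11 to 20. No p passed the threshold, which the fits within mice 1 to 10 or 11 to 20 and the fit without pools 3 and 4 could not reach. The doublet alternative was not run, because Scrublet marked under 0.5% of cells. The counts of genes changed by housing stayed at 0 in both directions under size factors, DESeq2, the block for mouse set, the stricter limits, and each pool left out. With no filter on low counts they were 6 higher and 32 lower. Without CVT pools 3 and 4 they were 3 higher and 0 lower, among azurophil-high cells 0 and 1, and within mice 1 to 10 they were 62 and 165, while within mice 11 to 20 they were 0 and 0. These settings, other than the filter, were chosen after seeing the data, and the cause of the changes was not tested. For the difference from all other KL cells, the 33 genes became 0 with DESeq2, 4 with at least 2 UMIs of each gene, 15 without CVT pools 3 and 4, and 12 to 77 with 1 pool left out, 12 without CVT pool 4 and 77 without CVT pool 5. For the difference from Irf8 Csf1r progenitors, the 0 genes became 48 with no filter, 3 with DESeq2, 12 with at least 2 UMIs of each gene, 2 without CVT pools 3 and 4, and 0 to 27 with 1 pool left out, 27 without CVT pool 5 and 11 without SPF pool 8. Of 402 refitted values of single named genes, 384 kept their direction and side of the threshold, and 18, of 11 genes, kept their direction and newly passed it. Most of these genes were picked because their CVT and SPF pools did not overlap, which left little room for a change of direction. None had passed in the main fit, so none could lose the threshold. These counts are therefore no measure of robustness. Single pools could not be paired, because the pools of the housing groups share no replicate number. The block for mouse set compared the groups within mice 1 to 10 and mice 11 to 20. Monocytes were 11 to 64 a pool, so low genes could not be compared at this depth.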
